A study of Homo sapiens with 6 samples.

Results

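A set of 175 genes had a low mean level in 3 solvent-treated human bladder cancer cell lines and a higher level in each line after treatment with the histone deacetylase inhibitor quisinostat. They were taken from 10066 assembled loci, of which 9112 had a value above 0 in all 6 libraries. A gene entered the set when its locus carried a gene name, its value was above 0 in every library, its mean over the 3 DMSO libraries was under 1 FPKM, and the quisinostat level divided by the DMSO level, on the log2 scale and called the ratio here, was over 0.3 in each line. FPKM is the number of sequenced fragments divided by transcript length and by the size of the library. TMSB15A and genes whose names begin with ZNF, SLC, HOX, HIST, KRT or LINC were left out, which removed 8 genes, and a further 45 loci were left out because they had no gene name. The set was thus selected on the measured values of all 6 libraries, so its levels and ratios are a description and no test was made on them.

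RNA was sequenced from RT4, RT112 and SW780 cells after 2 days with DMSO, the solvent control, or with quisinostat at 50 nM in RT4, 10 nM in RT112 and 25 nM in SW780. RT4 and RT112 carry a fusion of FGFR3, a receptor tyrosine kinase, with TACC3, and SW780 carries the fusion labelled FGFR3-BAIBP2L1, in control and treated cells alike. Each line and treatment had 1 library, so a ratio has no replicate check, and the effect of the dose cannot be told apart from that of the line. All 18 urothelial and epithelial marker genes examined were in the table. Their summed level with DMSO and with quisinostat was 1891 and 1071 FPKM for RT4, 1197 and 1762 FPKM for RT112, and 1748 and 1040 FPKM for SW780. The sum was thus lower with quisinostat in RT4 and SW780 and higher in RT112. In RT4 and SW780 its largest terms with DMSO were KRT7, KRT8, KRT18 and KRT19, all lower with quisinostat. The markers did not all move with the sum. EPCAM, CDH1 and KRT20 were higher with quisinostat in RT4 and SW780, as was UPK1B in RT4, and EPCAM and KRT20 were lower in RT112. All the other markers were lower with quisinostat in RT4 and SW780, so most markers moved with the sum in these lines. In RT4 the difference was large for UPK1A, at 12.8 FPKM with DMSO and 0.178 with quisinostat. It was small there for PPARG, at 67.3 and 63.2 FPKM. In RT112, where the sum was higher, PPARG, FOXA1, GRHL3 and ELF3 were also lower. The part of these marker changes in the results was not tested. None of the 4 endothelial or 7 leukocyte markers was listed. Of 7 neuron markers only NEFL was listed, and of 7 fibroblast markers 4 were listed, COL1A1 being also a gene of the set. In bulk RNA, a change in the number of cells of a type and a change in RNA per cell cannot be told apart.

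Histone deacetylases remove acetyl groups from the lysines of histone tails, and genes kept silent in a given cell type often lie in chromatin poor in histone acetylation. Quisinostat is a hydroxamate that inhibits many enzymes of this family at nanomolar concentrations. Inhibitors of this class are known for switching on genes that belong to other tissues, neuronal genes among them, as well as for lowering many active genes.

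The upstream sequences of 5 genes of the set are shown because these genes had high ratios in every line. They are the highest genes in the order of the weakest ratio over the lines whose 250-base window, in the RefSeq table used here, runs at most 30 bases into the transcripts annotated in GENCODE 29. The coordinates are on GRCh38.p14 and the sequences are from RefSeq, 5′ to 3′ on the strand of the gene. CDK5R2 lies on the plus strand at chr2:218959416-218959665, REEP1 on the minus strand at chr2:86338084-86338333 and COL5A3 on the minus strand at chr19:10010505-10010754. TMPRSS11E lies on the plus strand at chr4:68447213-68447462 and SGPP2 on the plus strand at chr2:222423738-222423987. The SGPP2 window belongs to a RefSeq start upstream of the GENCODE 29 gene, which begins at chr2:222424517, so it is not the sequence next to that start.
CDK5R2: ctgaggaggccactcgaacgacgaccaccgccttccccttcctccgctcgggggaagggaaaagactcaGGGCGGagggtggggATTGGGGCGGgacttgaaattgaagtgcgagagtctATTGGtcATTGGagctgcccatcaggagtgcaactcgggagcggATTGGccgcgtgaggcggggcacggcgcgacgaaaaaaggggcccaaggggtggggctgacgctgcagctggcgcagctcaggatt
REEP1: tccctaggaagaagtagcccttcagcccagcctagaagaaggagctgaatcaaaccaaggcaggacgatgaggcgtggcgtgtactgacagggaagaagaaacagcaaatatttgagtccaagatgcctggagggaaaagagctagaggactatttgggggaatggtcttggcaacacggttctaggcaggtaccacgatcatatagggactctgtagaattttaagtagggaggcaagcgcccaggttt
COL5A3: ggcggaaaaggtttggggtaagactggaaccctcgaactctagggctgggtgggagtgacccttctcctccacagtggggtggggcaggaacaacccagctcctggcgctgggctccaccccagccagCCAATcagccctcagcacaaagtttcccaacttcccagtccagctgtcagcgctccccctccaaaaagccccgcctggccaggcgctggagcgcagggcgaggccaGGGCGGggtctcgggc
TMPRSS11E: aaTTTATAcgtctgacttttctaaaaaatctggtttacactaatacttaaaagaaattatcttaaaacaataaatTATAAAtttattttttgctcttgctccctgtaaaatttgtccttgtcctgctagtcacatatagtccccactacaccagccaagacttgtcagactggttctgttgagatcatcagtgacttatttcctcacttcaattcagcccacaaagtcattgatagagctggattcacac
SGPP2: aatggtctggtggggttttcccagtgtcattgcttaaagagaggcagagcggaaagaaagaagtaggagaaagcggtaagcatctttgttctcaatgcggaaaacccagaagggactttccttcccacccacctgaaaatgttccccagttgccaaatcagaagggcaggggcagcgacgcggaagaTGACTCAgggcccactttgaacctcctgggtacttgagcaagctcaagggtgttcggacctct

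Capitals mark matches, on either strand, to the letters of known promoter elements and factor sites. The letters searched were TATAAA for the TATA box, CCAAT for the CCAAT box and GGGCGG for the GC box. They were TGACGTCA for the cyclic AMP response element, TGACTCA for the AP-1 site (its other strand reads TGAGTCA) and CACGTG for the E-box. For the long element of the neuronal repressor REST, CAGCACC was searched for one of its ends and GGACAGC for the other. CDK5R2 held 4 CCAAT boxes and 2 GC boxes, 1 of each overlapping. COL5A3 held 1 match to each of the same elements, SGPP2 held 1 match to the AP-1 letters and REEP1 held no match. TMPRSS11E held 2 matches to the TATA letters, at -175 and, on the other strand, at -248 from the RefSeq start. Over all 35116 windows of this length, 32% held a CCAAT box, 42.6% a GC box, 10.7% a TATA box and 4.2% an AP-1 site, while 1.65% held the cyclic AMP response element, 6.34% an E-box, 6.16% the letters CAGCACC and 4.76% the letters GGACAGC. The windows also differed in base composition, from 34.4% G and C with 1 CpG in TMPRSS11E to 66% with 10 CpG in COL5A3, while CDK5R2 held 20 CpG at 64%. A match is a description of the letters, and no share over the whole set is given because only 70.9% of the 175 genes had a window.

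Over the 175 genes, the median level was 0.271 FPKM in RT4, 0.233 in RT112 and 0.484 in SW780 with DMSO, and 2.51, 1.33 and 2.13 FPKM with quisinostat. Genes at 1 FPKM or more numbered 21, 24 and 42 with DMSO and 125, 113 and 139 with quisinostat, in the same order of lines. In 80 genes at least 1 DMSO library was already at 1 FPKM or more, so that a low mean did not always hold in every line. After treatment most genes were still at low levels, since 61 reached 5 FPKM in at least 1 quisinostat library and 16 reached 10 FPKM. ANKRD1, which encodes an ankyrin repeat protein of the heart, was the only gene at 5 FPKM or more in all 3. The ratios (log2) had medians of 3.04 for RT4, 2.41 for RT112 and 2.06 for SW780, and over all 9112 loci the medians were 0.08, 0.06 and 0.04. 

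**Figure D1:**
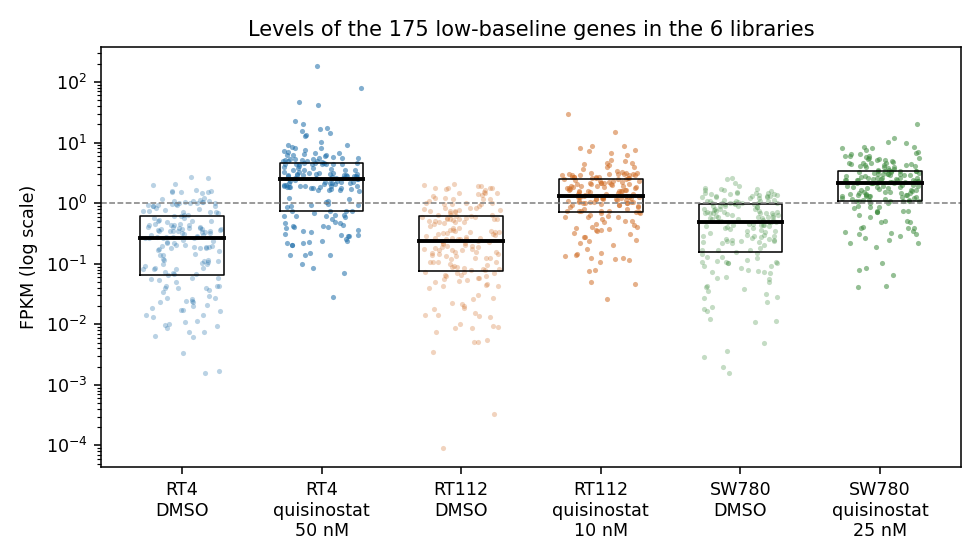
FPKM of the 175 genes in each of the 6 libraries on a log axis, 1 point per gene, with the box from the first to the third quartile, a heavy line at the median and a dashed line at 1 FPKM. The medians are 0.271, 0.233 and 0.484 FPKM in the DMSO libraries of RT4, RT112 and SW780 and 2.51, 1.33 and 2.13 FPKM in their quisinostat libraries.

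Among all 9112 loci, 11.4% had a log2 ratio over 0.3 in all 3 lines, while 40.3% did so in RT4, 36% in RT112 and 32.8% in SW780. Among the 441 loci with a mean under 1 FPKM in DMSO the share in all 3 lines was 51.7%. Of these 441, 427 reached 1 FPKM in at least 1 library and the highest library was a quisinostat library in 404, so a low locus that stayed low in every library was rarely listed. How much of the larger share this feature of the table accounts for was not tested. Of the 328 low-baseline loci with a gene name, 8 were over 0.3 in no line, 49 in 1 line, 88 in 2 lines and 183 in all 3, and 3 were below -0.3 in all 3 lines. The 807 loci with a ratio over 0.3 in all 3 lines and a mean of 1 FPKM or more in DMSO had smaller medians, at 1.25 for RT4, 0.74 for RT112 and 0.88 for SW780.

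Of the 175 genes, 118 had a log2 ratio over 1 in all 3 lines, against 273 such loci, or 3%, in the whole table. The set held 53 of the 74 loci over 2 in all 3 lines and 22 of the 25 loci over 3. For 87 genes the lowest quisinostat library was above the highest DMSO library, an arrangement seen in 6.18% of all loci. The rule used the same ratios, so nothing further is read from these shares. For the other 88 genes a DMSO library of one line was at or above a quisinostat library of another, although the ratio within each line was above the limit.

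The highest place by the weakest of the 3 ratios belonged to TNC, which encodes tenascin C, a matrix glycoprotein of development and wound repair. TNC was at 0.00338 FPKM in RT4, 0.0563 in RT112 and 0.107 in SW780 with DMSO, and at 0.241, 2.70 and 5.54 FPKM with quisinostat. All 3 quisinostat libraries were above all 3 DMSO libraries, although the quisinostat level in RT4 remained low. CDK5R2, which encodes an activator of the neuronal kinase CDK5, was at 0.0430, 0.00922 and 0.0358 FPKM in RT4, RT112 and SW780 cells with DMSO and at 1.94, 0.749 and 1.51 FPKM with quisinostat, with log2 ratios of 5.50, 6.34 and 5.40 in RT4, RT112 and SW780. AZGP1, which encodes a secreted zinc-binding glycoprotein, was at 0.0821 FPKM in RT4, 0.0219 in RT112 and 0.0604 in SW780 with DMSO, and at 8.07, 0.732 and 3.03 FPKM with quisinostat. For both genes the groups did not overlap, and RT112 cells had the lowest level of the 3 lines after treatment. REEP1 shapes the endoplasmic reticulum in neurons and was at 0.0505, 0.0101 and 0.0902 FPKM in RT4, RT112 and SW780 cells with DMSO and at 2.24, 0.586 and 1.38 FPKM with quisinostat. Its levels did not overlap between the treatments and were highest in RT4 cells after quisinostat.

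CRISP3, a cysteine-rich secretory protein, reached the highest level of any gene in the set. It was at 1.55 FPKM in RT4, 0.267 in RT112 and 0.677 in SW780 with DMSO, and at 181, 4.31 and 10.2 FPKM with quisinostat. The RT4 library with quisinostat was far above the others, but in each line the treated library was above all DMSO libraries. SELENOP carries selenium between tissues and was at 2.06, 0.0775 and 0.259 FPKM in RT4, RT112 and SW780 cells with DMSO and at 46.3, 1.56 and 3.90 FPKM with quisinostat. Here the groups overlapped, because the DMSO level in RT4 exceeded the quisinostat level in RT112, yet the log2 ratios were alike at 4.49, 4.33 and 3.91. NPNT, an integrin ligand of basement membranes, was at 0.271 FPKM in RT4, 0.0140 in RT112 and 0.107 in SW780 with DMSO, and at 7.26, 0.173 and 1.42 FPKM with quisinostat and also overlapped between the groups. COL5A3, a chain of collagen V, was at 0.0246, 0.0662 and 0.00359 FPKM in RT4, RT112 and SW780 cells with DMSO and at 2.22, 0.949 and 0.0640 FPKM with quisinostat. The quisinostat level in SW780 was slightly under the DMSO level in RT112.

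**Figure D2:**
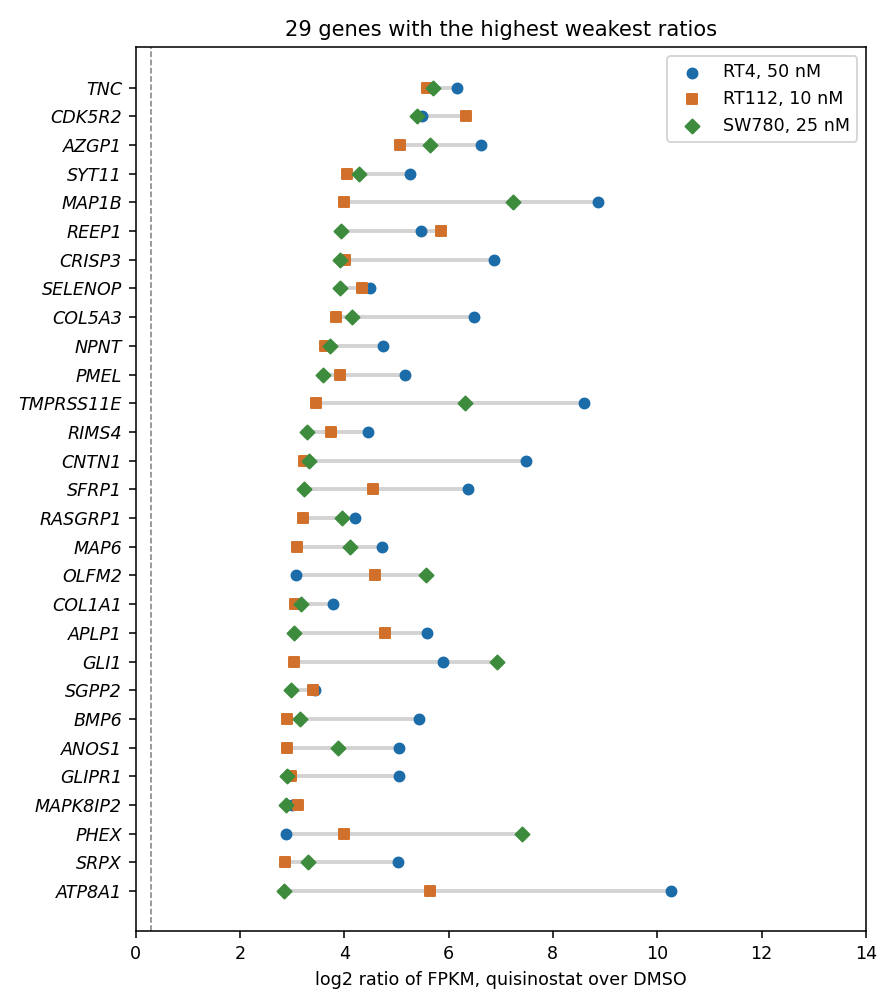
Log2 ratio of quisinostat over DMSO in RT4 (circles), RT112 (squares) and SW780 (diamonds) for 29 of the 30 genes with the highest weakest ratio, with a grey bar over the range and a dashed line at the limit of 0.3. TNC leads at 6.16, 5.58 and 5.70, and ATP8A1 shows the longest bar, from 2.85 in SW780 to 10.27 in RT4.

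The genes lowest before treatment numbered 10. CDK5R2, AZGP1, SYT11, MAP1B, REEP1, COL5A3, MAP6, GLI1, PHEX and PCOLCE2 were each under 0.1 FPKM in all 3 DMSO libraries. GLI1, a transcription factor and target of the Hedgehog pathway, was at 0.0737 FPKM in RT4, 0.0155 in RT112 and 0.0110 in SW780 with DMSO, and at 4.37, 0.127 and 1.33 FPKM with quisinostat. PHEX, an endopeptidase that controls phosphate handling in bone, was at 0.00970, 0.00891 and 0.0191 FPKM in RT4, RT112 and SW780 cells with DMSO and at 0.0713, 0.141 and 3.23 FPKM with quisinostat. Both were highest in a single line after treatment, GLI1 in RT4 and PHEX in SW780, and neither overlapped between the treatments. PCOLCE2, which enhances procollagen processing, was at 0.0539 FPKM in RT4, 0.0778 in RT112 and 0.0114 in SW780 with DMSO, and at 4.14, 0.203 and 0.0415 FPKM with quisinostat. Its 3 treated libraries spread widely, and the SW780 value after quisinostat was below the DMSO values in the other lines.

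A further group of 25 genes was under 1 FPKM in every DMSO library and at 1 FPKM or more in every quisinostat library, as were 31, or 0.34%, of all 9112 loci. The rule of the set favors this pattern, so nothing is read from the count. TMPRSS11E, a membrane-anchored serine protease of epithelia, was at 0.206, 0.289 and 0.252 FPKM in RT4, RT112 and SW780 cells with DMSO and at 79.3, 3.17 and 20.0 FPKM with quisinostat. Its DMSO levels were alike in the 3 lines, while after treatment RT4 was far above SW780 and SW780 above RT112. OLFM2, a secreted olfactomedin protein, was at 0.522 FPKM in RT4, 0.614 in RT112 and 0.0714 in SW780 with DMSO, and at 4.38, 14.8 and 3.40 FPKM with quisinostat, with the highest treated level in RT112. SRPX, a sushi-repeat protein, was at 0.446, 0.154 and 0.689 FPKM in RT4, RT112 and SW780 cells with DMSO and at 14.6, 1.13 and 6.79 FPKM with quisinostat. TMCC2, a transmembrane coiled-coil protein, was alike in the 3 lines, at 0.305 FPKM in RT4, 0.333 in RT112 and 0.323 in SW780 with DMSO, and at 2.22, 1.78 and 2.17 FPKM with quisinostat. RRAGD, a Rag GTPase that relays amino acid supply, was at 0.691, 0.988 and 0.636 FPKM in RT4, RT112 and SW780 cells with DMSO and at 20.6, 3.19 and 4.53 FPKM with quisinostat, with RT4 highest after treatment. CD274, which encodes the immune checkpoint ligand PD-L1, was at 0.240 FPKM in RT4, 0.343 in RT112 and 0.700 in SW780 with DMSO, and at 1.83, 1.07 and 4.91 FPKM with quisinostat. All treated levels of these genes were above all DMSO levels, as the criterion of the group requires.

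**Figure D3:**
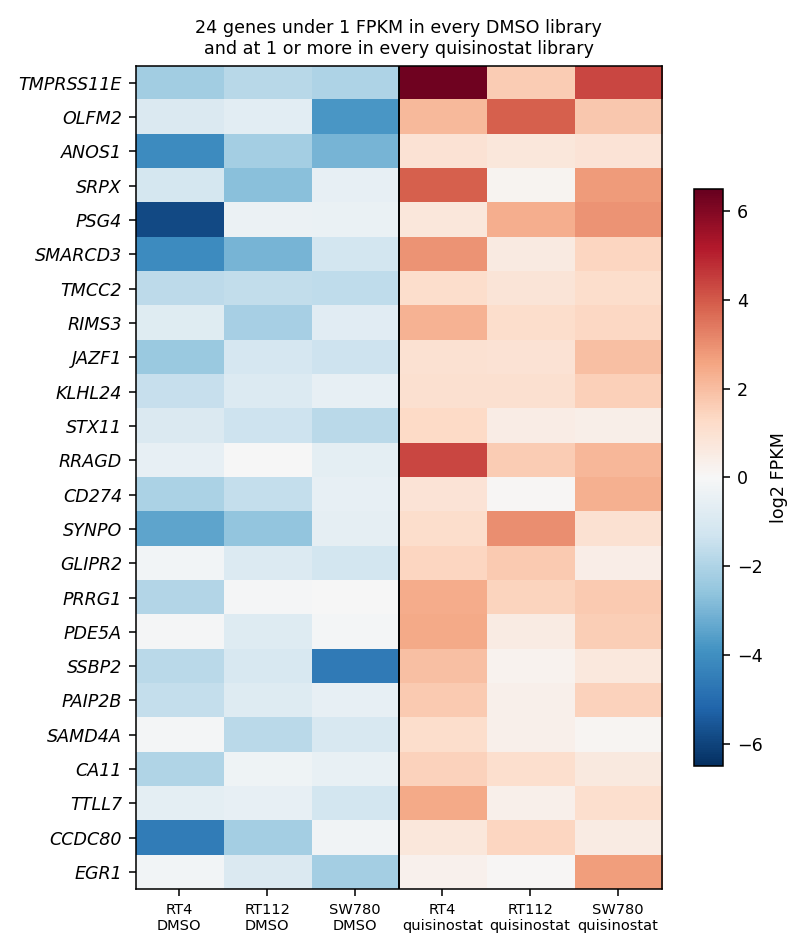
Heat map of log2 FPKM in the 6 libraries for 24 of the 25 genes that were under 1 FPKM in every DMSO library (left 3 columns, blue) and at 1 FPKM or more in every quisinostat library (right 3 columns, red), in the order of the weakest ratio. TMPRSS11E in RT4 is the darkest red cell at 79.3 FPKM, and PSG4 in RT4 with DMSO is the darkest blue at 0.0172 FPKM.

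Gene lists of 19 kinds were used to group the genes by role, and 57 of the 175 were in at least 1 list. The lists were written with part of these data and some of these genes already in view, so their counts describe the table and are no independent evidence. Among the genes in view were SYT11, RIMS3, RAB3IL1, MAP6, MAPK8IP1 and TTLL7 of the neuronal lists. WNT4 and WNT9A of the Wnt list and ATF3, DYRK3 and CTH of the stress response list were also in view. A count is the number of list genes above 0 in all libraries that had a ratio over 0.3 in all 3 lines, to be read beside the 11.4% of all loci over 0.3 and the 4.99% below -0.3 in all 3 lines. A count in the set is given out of the list genes with a mean under 1 FPKM in DMSO, since no other gene could enter it, and is to be read beside the 175 of 328 named low-baseline loci, or 53.4%, that were in the set. The lists hold few such genes, no list was tested, and nothing is read from a share near the background.

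The lists of neuronal genes had the highest counts over the limit for their size, but several of their genes were in view when they were written. In the list of neuronal cytoskeleton and axon genes 12 of 18 were over the limit in all 3 lines, with 6 of 7 low-baseline genes in the set, and in the list of synaptic vesicle and secretory granule genes 7 of 11, with 4 of 4 in the set. MAP1B binds microtubules in growing axons and was at 0.0273 FPKM in RT4, 0.00750 in RT112 and 0.0267 in SW780 with DMSO, and at 12.6, 0.119 and 4.01 FPKM with quisinostat. RT4 and SW780 cells were well above RT112 after treatment, and no treated library was as low as a DMSO library. MAP6, which stabilizes microtubules, was at 0.0687, 0.0698 and 0.0168 FPKM in RT4, RT112 and SW780 cells with DMSO and at 1.81, 0.596 and 0.288 FPKM with quisinostat. CNTN1, an adhesion molecule of axons, was at 0.00158 FPKM in RT4, 0.0621 in RT112 and 0.990 in SW780 with DMSO, and at 0.284, 0.581 and 9.94 FPKM with quisinostat, and its level in SW780 with DMSO was above the treated levels in both other lines. MAPK8IP1 and MAPK8IP2, scaffolds of the JNK pathway, had the most even ratios of the set. In RT4, RT112 and SW780 they were 2.55, 2.86 and 2.57 for MAPK8IP1 and 3.0, 3.12 and 2.89 for MAPK8IP2. MAPK8IP2 in RT4 was only at 0.0107 FPKM with DMSO and 0.0858 with quisinostat. With 0.1 FPKM added to every value the ratios were 1.82, 2.54 and 2.31 for MAPK8IP1 and 0.75, 2.46 and 1.55 for MAPK8IP2. The evenness of MAPK8IP2 thus depended on values near 0. TTLL7, an enzyme that adds glutamate chains to tubulin, had log2 ratios of 3.10, 0.83 and 2.26.

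SYT11, a synaptotagmin of vesicle traffic, was at 0.00942, 0.0620 and 0.0770 FPKM in RT4, RT112 and SW780 cells with DMSO and at 0.363, 1.03 and 1.50 FPKM with quisinostat. It did not overlap between the treatments and was highest in SW780 cells. RIMS3, a protein of the presynaptic active zone, was at 0.577 FPKM in RT4, 0.223 in RT112 and 0.602 in SW780 with DMSO, and at 4.74, 2.17 and 2.52 FPKM with quisinostat and likewise did not overlap. RIMS4, of the same family, had log2 ratios of 4.46, 3.75 and 3.28 from levels of 0.0101 to 0.229 FPKM with DMSO. RAB3IL1, an exchange factor for Rab proteins, had ratios of 3.35, 4.74 and 0.32 and lay close to the limit in SW780 cells. Of the other neuronal genes, APLP1, a relative of the amyloid precursor protein, was at 0.101, 0.167 and 1.47 FPKM in RT4, RT112 and SW780 cells with DMSO and at 4.88, 4.57 and 12.1 FPKM with quisinostat. Its highest DMSO library, SW780, was still below its lowest treated library. NEFL, the only listed neuron marker, is not in the set because it was at 0 in RT112 with DMSO, and it was at 0.465 FPKM in RT4 and 1.71 in SW780 with DMSO and at 9.55, 0.171 and 7.85 FPKM in RT4, RT112 and SW780 with quisinostat.

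**Figure D4:**
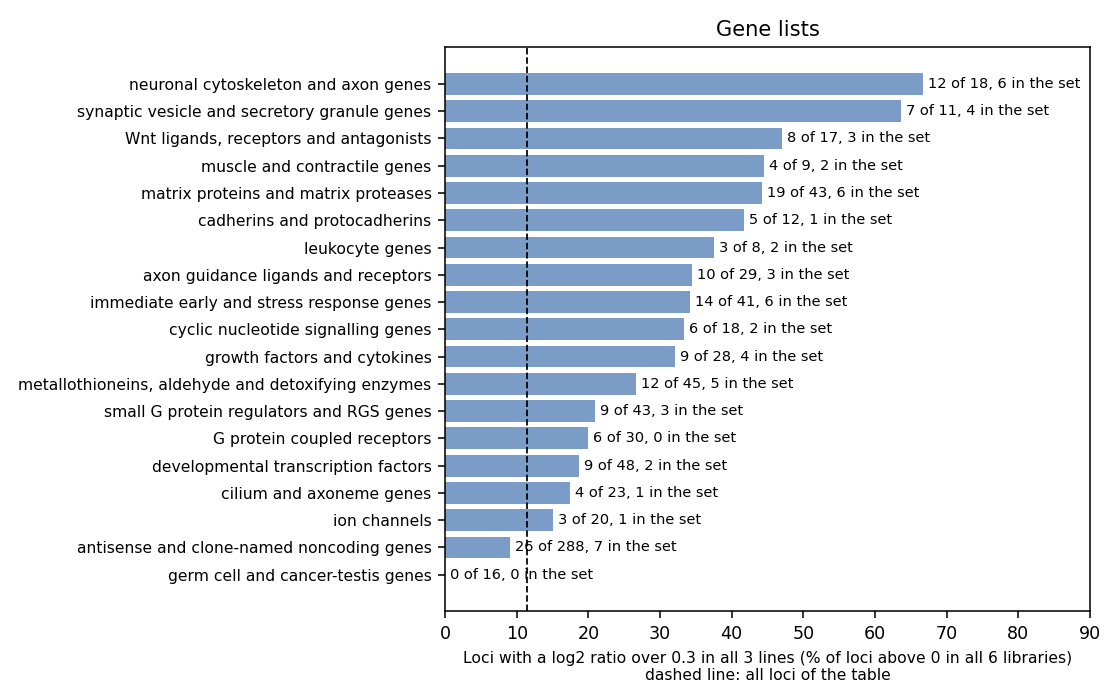
Percent of the genes of each list that had a log2 ratio over 0.3 in all 3 lines, among those above 0 in all 6 libraries, with the counts and the number in the set at the end of each bar, and a dashed line at the 11.4% of all loci. The neuronal cytoskeleton and axon genes stand highest with 12 of 18, and the germ cell and cancer-testis genes lowest with 0 of 16.

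Genes of secreted signals were also in the set. The list of growth factors and cytokines had 9 of 28 over the limit in all 3 lines and 3 below -0.3 in all 3, with 4 of 7 low-baseline genes in the set, and the Wnt list had 8 of 17, with 3 of 4 in the set. The bone morphogenetic proteins BMP2, BMP6 and BMP7 are ligands of one receptor family. BMP6 was at 0.0169 FPKM in RT4, 0.0980 in RT112 and 0.242 in SW780 with DMSO, and at 0.729, 0.731 and 2.16 FPKM with quisinostat. BMP7 was at 0.0233, 0.769 and 0.0287 FPKM in RT4, RT112 and SW780 cells with DMSO and at 0.333, 2.59 and 1.36 FPKM with quisinostat, and BMP2 was at 1.58 FPKM in RT4, 0.0178 in RT112 and 0.301 in SW780 with DMSO, and at 3.62, 0.790 and 1.24 FPKM with quisinostat. BMP6 did not overlap between the treatments, whereas BMP7 was already higher in RT112 with DMSO, and BMP2 in RT4 with DMSO, than in a treated library of another line. CXCL8, a chemokine that draws neutrophils, was at 0.324, 0.197 and 1.07 FPKM in RT4, RT112 and SW780 cells with DMSO and at 5.25, 1.23 and 5.27 FPKM with quisinostat, with no overlap. EDN1, the precursor of the vasoconstrictor endothelin, was at 1.66 FPKM in RT4, 0.153 in RT112 and 0.852 in SW780 with DMSO, and at 6.74, 2.86 and 4.48 FPKM with quisinostat, again with no overlap.

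Among the Wnt genes, WNT4 encodes a ligand and was at 0.0991, 0.0645 and 0.102 FPKM in RT4, RT112 and SW780 cells with DMSO and at 0.405, 0.433 and 1.32 FPKM with quisinostat. WNT9A, another ligand, was at 0.137 FPKM in RT4, 0.0826 in RT112 and 0.184 in SW780 with DMSO, and at 0.638, 0.970 and 1.07 FPKM with quisinostat. SFRP1, a secreted protein that binds Wnt ligands and blocks them, was at 0.00885, 0.0711 and 0.907 FPKM in RT4, RT112 and SW780 cells with DMSO and at 0.732, 1.67 and 8.46 FPKM with quisinostat. The levels of both ligands did not overlap between the treatments, and those of SFRP1 did, because SW780 had a higher level with DMSO than RT4 with quisinostat. For axon guidance, 10 of 29 genes were over the limit in all 3 lines and 3 of 3 low-baseline genes were in the set. ROBO1, the receptor for Slit proteins, was at 2.75 FPKM in RT4, 0.108 in RT112 and 0.105 in SW780 with DMSO, and at 15.6, 1.75 and 1.27 FPKM with quisinostat, with its DMSO level in RT4 above the treated levels in both other lines. EPHB2, a receptor for ephrins, had log2 ratios of 0.32, 5.32 and 1.46, and SEMA4F, a semaphorin, of 0.76, 0.80 and 2.79.

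In the list of matrix proteins and matrix proteases 19 of 43 genes were over the limit in all 3 lines and 1 was below -0.3 in all 3, with 6 of 9 low-baseline genes in the set. TNC and COL5A3 were described above. COL1A1, a chain of collagen I, was at 0.0342, 0.173 and 0.0558 FPKM in RT4, RT112 and SW780 cells with DMSO and at 0.474, 1.45 and 0.504 FPKM with quisinostat, and its groups did not overlap. The 4 listed fibroblast markers, COL1A1 among them, summed with DMSO and with quisinostat to 1.16 and 10.2 FPKM for RT4, 135 and 135 FPKM for RT112, and 10.97 and 18.5 FPKM for SW780. The sum was higher with quisinostat in RT4 and SW780 and nearly unchanged in RT112, where nearly all of it was LUM. By the rule, the matrix genes of the set were higher in all 3 lines. COL3A1, another of these markers, was at 2.74 FPKM with DMSO and 1.31 with quisinostat in SW780, and was higher with quisinostat in RT4 and RT112. The part of these markers in the result was not tested. MATN3, a matrilin of cartilage, was at 1.58 FPKM in RT4, 0.740 in RT112 and 0.647 in SW780 with DMSO, and at 3.95, 3.88 and 5.94 FPKM with quisinostat. P3H3, a collagen prolyl hydroxylase, had log2 ratios of 2.03, 5.49 and 0.93, and ADAMTS15, a matrix protease, of 2.98, 0.37 and 2.79. GPC3, a cell surface heparan sulfate proteoglycan, was at 1.47, 0.760 and 0.0577 FPKM in RT4, RT112 and SW780 cells with DMSO and at 22.3, 8.78 and 0.243 FPKM with quisinostat, and it stayed low in SW780 cells. CDH2, the N-cadherin of neural and mesenchymal cells, had log2 ratios of 5.15, 1.35 and 2.45, from the list of cadherins and protocadherins, where 5 of 12 were over the limit in all 3 lines and 1 was below -0.3.

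Among muscle and contractile genes 4 of 9 were over the limit in all 3 lines and 2 of 3 low-baseline genes were in the set. ANKRD1 was at 0.0271 FPKM in RT4, 1.49 in RT112 and 1.07 in SW780 with DMSO, and at 7.06, 30.1 and 6.05 FPKM with quisinostat, highest in RT112 in both treatments. TNNI3, the cardiac inhibitory troponin, shares its assembled locus with DNAAF3, and that locus was at 0.0142, 0.0889 and 0.158 FPKM in RT4, RT112 and SW780 cells with DMSO and at 0.924, 0.745 and 0.887 FPKM with quisinostat. Neither overlapped between the treatments. Among leukocyte genes the count was 3 of 8, with 2 of 2 low-baseline genes in the set. As stated above, none of the 7 leukocyte markers was listed.

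Immediate early and stress response genes had 14 of 41 over the limit in all 3 lines and 4 below -0.3 in all 3, with 6 of 6 low-baseline genes in the set. KLF4, a transcription factor of epithelial differentiation, was at 0.755 FPKM in RT4, 0.143 in RT112 and 1.77 in SW780 with DMSO, and at 2.99, 1.82 and 7.03 FPKM with quisinostat. ATF3, a transcription factor of the stress response, was at 0.445, 0.682 and 1.31 FPKM in RT4, RT112 and SW780 cells with DMSO and at 4.66, 6.79 and 4.69 FPKM with quisinostat. Both did not overlap between the treatments. EGR1, a transcription factor induced by growth signals, was at 0.889 FPKM in RT4, 0.513 in RT112 and 0.218 in SW780 with DMSO, and at 1.22, 1.06 and 6.47 FPKM with quisinostat, with much the largest difference in SW780. DYRK3, a kinase, had log2 ratios of 2.83, 0.91 and 1.20. CTH, an enzyme of cysteine synthesis, had ratios of 2.95, 0.64 and 1.54, and CHAC1, which degrades glutathione, of 0.35, 1.59 and 2.07.

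Of the metallothioneins, aldehyde and detoxifying enzymes, 12 of 45 were over the limit in all 3 lines and 5 of 7 low-baseline genes were in the set. ALDH1A1, which oxidizes retinaldehyde, was at 0.724, 0.0185 and 0.814 FPKM in RT4, RT112 and SW780 cells with DMSO and at 42.4, 0.116 and 3.10 FPKM with quisinostat, and RT4 stood far above the other lines after treatment. GSTA1, a glutathione transferase, was at 0.246 FPKM in RT4, 0.259 in RT112 and 0.0798 in SW780 with DMSO, and at 5.40, 1.15 and 0.650 FPKM with quisinostat, with no overlap. MT1F, a metallothionein, was at 1.04, 0.204 and 0.234 FPKM in RT4, RT112 and SW780 cells with DMSO and at 2.33, 3.07 and 0.585 FPKM with quisinostat; like other metallothioneins it has close copies with which reads can be shared. ABCB1, the drug efflux pump P-glycoprotein, was at 0.0405 FPKM in RT4, 0.171 in RT112 and 0.775 in SW780 with DMSO, and at 8.43, 0.703 and 2.62 FPKM with quisinostat, highest in RT4. PDE5A, the phosphodiesterase of cyclic GMP, was at 0.950, 0.561 and 0.907 FPKM in RT4, RT112 and SW780 cells with DMSO and at 5.47, 1.43 and 2.99 FPKM with quisinostat, with no overlap, in a list of cyclic nucleotide signaling genes with 6 of 18 over the limit in all 3 lines and 2 below -0.3.

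Other lists gave few genes of the set. Small G protein regulators had 9 of 43 over the limit and 3 of 3 low-baseline genes in the set. Among them was RASGRP1, an activator of Ras, at log2 ratios of 4.22, 3.20 and 3.95. In RT112 RASGRP1 was only at 0.0051 FPKM with DMSO and 0.0468 with quisinostat. With 0.1 FPKM added to both values its ratio there was 0.48. Developmental transcription factors had 9 of 48 and 2 of 3 in the set, DLX3 and NKX1-2, with ratios of 1.02, 2.27 and 1.78 and of 3.12, 0.69 and 2.05. Ion channels had 3 of 20 and 1 of 2 in the set, HCN2, and cilium genes had 4 of 23 and 1 of 1 in the set, TTLL7. G protein coupled receptors had 6 of 30 and 0 of 2 low-baseline genes in the set. Germ cell and cancer-testis genes had 0 of 16 over the limit and 1 below -0.3. None of these 16 had a mean under 1 FPKM with DMSO, so none could enter the set. The list held 34 loci, and those at 0 in any library were not counted. PAGE4 and GAGE2A, among the uncounted loci, were higher with quisinostat in all 3 lines, and the others are not described here. Antisense and clone-named noncoding genes had 26 of 288 over the limit in all 3 lines and 24 below -0.3, with 7 of 23 low-baseline genes in the set. The highest of these was SBF2-AS1 at 0.363 FPKM in RT4, 0.261 in RT112 and 0.384 in SW780 with DMSO, and at 10.2, 1.88 and 0.481 FPKM with quisinostat, which lay just above the limit in SW780 cells. Whether the strand of a read was used for it is not given in the sources used here, so reads of the overlapping SBF2 gene may be part of its value. The locus named MIR635 was at 0.993, 0.787 and 1.01 FPKM in RT4, RT112 and SW780 cells with DMSO and at 4.38, 1.34 and 2.35 FPKM with quisinostat, and in libraries of polyadenylated RNA this is a level of the assembled transcript and not of the mature microRNA.

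The size of the ratio differed between the lines, and without replicates these differences could not be tested. The strongest ratio was in RT4 for 108 genes, in RT112 for 41 and in SW780 for 26, and the weakest was in RT4 for 32, in RT112 for 71 and in SW780 for 72. The highest treated level was in RT4 for 83 genes, in RT112 for 43 and in SW780 for 49. With DMSO the highest level was in RT4 for 44 genes, in RT112 for 49 and in SW780 for 82. None of these counts by line was made over all loci, so nothing particular to the set is read from them. For 98 genes the line with the highest level was the same before and after treatment. Across the 175 genes the Spearman correlation of the ratios was 0.13 between RT4 and RT112, 0.37 between RT4 and SW780 and 0.24 between RT112 and SW780, given as a description over genes cut at the same limit. Over all 9112 loci the same correlations were 0.04, 0.55 and 0.20. The median SD of log2 FPKM over the 3 lines was 1.46 with DMSO and 1.32 with quisinostat. The range of the ratio over the lines had a median of 2.24 and was under 1 for 17 genes, among them TNC, SELENOP, SGPP2, TMCC2, KLHL24 and STX11. SGPP2, a phosphatase of sphingosine phosphate, was at 1.55 FPKM in RT4, 0.0141 in RT112 and 0.0501 in SW780 with DMSO, and at 16.8, 0.148 and 0.393 FPKM with quisinostat, so that an even ratio went with a much higher level in RT4 in both treatments.

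Several of the largest ratios came from very small DMSO values. KIAA0895 had a log2 ratio of 13.70 in RT112, where it was at 9e-05 FPKM with DMSO and 1.20 FPKM with quisinostat, and ratios of 3.03 in RT4 and 1.07 in SW780. ATP8A1, a phospholipid flippase, had its log2 ratio of 10.27 in RT4 from 0.00172 and 2.13 FPKM. The same held for PROS1, the anticoagulant protein S, with 8.90 in RT4 from 0.0075 FPKM, and for AGTPBP1, a tubulin deglutamylase, with 8.77 in RT112 from 0.000328 FPKM. CCBE1, a secreted protein of lymphatic growth, was at 0.0051 FPKM in RT112 with DMSO and had a ratio of 7.66 there. In all, 22 genes had a DMSO value under 0.01 FPKM. Across the 175 genes the ratio and the DMSO level of the same line, which share a value, had Spearman correlations of -0.53, -0.66 and -0.62 for RT4, RT112 and SW780. With 0.1 FPKM added to every value the median log2 ratios were 2.43, 1.71 and 1.70, and with 1 FPKM added they were 1.32, 0.77 and 0.92.

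**Figure D5:**
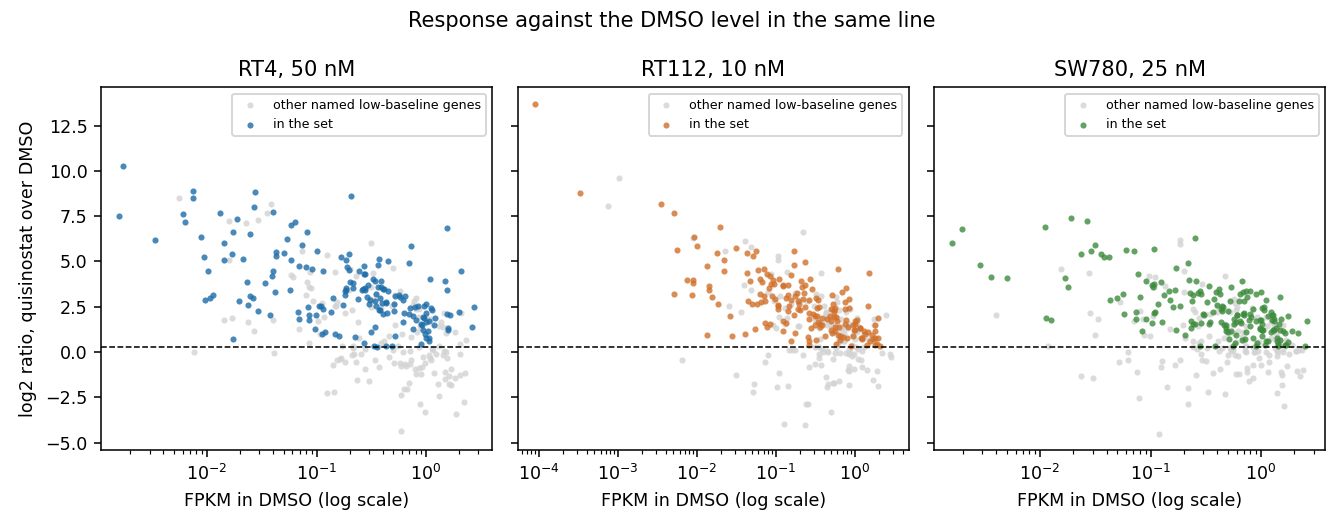
Log2 ratio of quisinostat over DMSO against the FPKM with DMSO in the same line, on a log axis, for the 175 genes (colored) and the other named low-baseline genes (grey), with a dashed line at the limit of 0.3, 1 panel per line. Ratios are higher toward low DMSO levels, with Spearman correlations of -0.53, -0.66 and -0.62 among the colored genes, and the point at the top left of the RT112 panel is KIAA0895 at 13.70.

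Just inside the limit on the ratio were PLAUR at a log2 ratio of 0.30 in RT4, GALNT5 at 0.32 in SW780 and HLA-F at 0.32 in SW780. PLAUR, the urokinase receptor, nevertheless had a ratio of 6.90 in RT112, from 0.0198 to 2.36 FPKM. HLA-F, a class I histocompatibility gene with close copies, had 8.16 in RT112. Just outside were CBR3-AS1 at 0.29 in RT4, PLCG2 at 0.28 in SW780 and MME at 0.28 in SW780. Just inside the limit on the level were PPP1R1C, MATN3 and C14orf37, with means over the DMSO libraries of 0.995, 0.988 and 0.994 FPKM, and just outside were SEMA3E, OTUB2 and KLHL5 at 1.00, 1.01 and 1.01 FPKM.

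Of the 175 genes, 172 were matched to GENCODE 29, and 161 of these were protein coding. The median gene length was 44.7 kb, against 23.8 kb for the named low-baseline loci outside the set and 29.7 kb for all named loci, and the median GC content of the transcript was 48.7%, 50.4% and 48.1% in the same order. The ratio correlated with transcript GC content at -0.30 in RT4, 0.18 in RT112 and -0.12 in SW780 over the genes of the set and at -0.49, 0.44 and -0.22 over all loci. A GC trend was fitted in each line on loci with a mean of 1 FPKM or more over all libraries. Genes with a lower mean were thus corrected by a curve fitted without them. After this trend was removed, 165 of the 172 genes kept a ratio over 0.3 in all 3 lines. Among the 7 that did not were ABCA2, ADAMTS15, AL590666.2, CYP2F2P, GALNT5 and SBF2-AS1. The weakest corrected ratio of the 7 ran from -0.41 for ABCA2 in RT112 to 0.27 for AL590666.2 in RT112.

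Of the placed genes, 17 were on chromosome 1, or 9.88% against 10.6% of all named loci placed. Chromosome 19 held 15, or 8.72% against 6.44%, and chromosome 6 held 13, or 7.56% against 5.09%. Chromosome 9 held 12, or 6.98% against 3.82%, and the X chromosome held 10, or 5.81% against 3.11%. Others held less than their share, among them chromosome 17 with 4.07% against 6.33%, chromosome 16 with 1.74% against 4.23% and chromosome 10 with 1.16% against 3.57%. These shares were not tested. Within 1 Mb of another gene of the set lay 29 of 172, or 16.9%, against 18.6% of all named loci within 1 Mb of one. In 3 cases neighboring loci of the table were both in the set. WNT4 and EPHB2 were 567 kb apart on chromosome 1, and OLFM2 and COL5A3 were 23.0 kb apart on chromosome 19. PSG5 and PSG4, pregnancy-specific glycoproteins of the placenta, were 6.17 kb apart on chromosome 19. PSG4 was at 0.0172 FPKM in RT4, 0.756 in RT112 and 0.733 in SW780 with DMSO, and at 1.67, 5.09 and 7.54 FPKM with quisinostat, and PSG5 was at 0.0398, 0.199 and 0.0843 FPKM in RT4, RT112 and SW780 cells with DMSO and at 0.881, 0.996 and 0.189 FPKM with quisinostat. They are close copies of each other, so their reads can be shared and the 2 levels are uncertain.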

How the data were processed

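The authors extracted polyadenylated RNA, made stranded TruSeq libraries, sequenced them on a NovaSeq instrument and used a HISAT2, StringTie and Ballgown pipeline. The submitters' processing notes name CASAVA 1.8.2, Trimmomatic 0.36, HISAT2 2.2.1, SAMtools 1.15.1, StringTie 2.2.1 and GRCh38. Neither the annotation release nor the rule that put a locus in the table is given in the sources used here. The deposited values are FPKM, without counts, so depth is unknown. For SW780 with quisinostat, 1 label misspells the line, which was taken from the title.

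Each assembled locus entered with 1 row, and plain log2 ratios were computed per line with Python 3.11.15, pandas 2.3.3 and SciPy 1.17.1. Gene features came from GENCODE 29, and promoter windows of 250 bases before and 50 after the start from RefSeq. The selection was run on simulated data with known answers. The simulated noise was small and the planted rises were clear of the limit. This checks the computation and not the error of values near 0. The members and lists were chosen with earlier results of these data known, and part of the table was seen while the lists were written. Named genes were the 10 with the highest weakest ratio, the 10 with the highest mean quisinostat level, the 5 with the largest ratio in each line, up to 4 per list, neighbors, and those nearest the limits. Genes named beyond this rule, such as those in the groups under 0.1 FPKM or crossing 1 FPKM, and CD274, EDN1, ABCB1 and MIR635, were chosen after their values were seen. Alternatives changed the pseudocount, filters, limits, scaling, GC correction, naming and lines. No comparison was tested, because the rule used every library. A few genes of the set are not reported here by name.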

Additional observations from a re-analysis of the deposited data

How the results depend on the processing

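No paired analysis was possible because the result comes from no test, and each ratio was already taken within a line. Of 22 alternatives for the number of genes, 13 stayed within 1.5 times 175. The number was 110 with a pseudocount of 1 FPKM, 81 with at least 0.1 FPKM in all 6 libraries, 278 with zeros allowed and a pseudocount of 0.1, and 53 at a threshold of 2. It was 84 with a DMSO mean under 0.5 FPKM, 298 with one under 2 FPKM and 95 with under 1 FPKM in each DMSO library. Leaving out the RT4 cell line gave 278 and leaving out the RT112 cell line gave 283. Of the 175 genes themselves, 110 kept a ratio over 0.3 in all lines with a pseudocount of 1 FPKM, and 164 with 0.1 FPKM. Centring kept 165 and rescaling to the same sum kept 175, with the median of all loci in RT4 at 0.14. The share of low-baseline loci over the limit in all 3 lines, 51.7%, was 30.2% with a pseudocount of 1 FPKM, 45.1%, 32.7% and 13.6% at thresholds of 0.5, 1 and 2, 63.8% with a mean under 0.5 FPKM, 35.7% with one under 2 FPKM and 60.7% after GC correction. The corrected share is over the 323 loci with a GC value, for which the uncorrected share, added after the data were seen, was 55.7%. A stricter limit or filter leaves fewer genes by construction, and the cause of the other shifts was not tested. Without counts, no error of a value under 0.1 FPKM could be computed.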

Other observations

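The rule leaves out genes listed at 0 in any library, and some of these had higher values in all 3 quisinostat libraries. There were 128 such named loci, listed at 0 in 1 or more DMSO libraries, of which 14 were listed at 0 in all 3 and 17 were at 1 FPKM or more in all 3 quisinostat libraries. The total of named loci listed at 0 with DMSO is not given here, so these counts have no share to be read beside. A level listed at 0 with DMSO cannot be lower with quisinostat, so nothing is read from the counts. The genes below were chosen after their values were seen, and no fold is given against a listed 0.

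Class II histocompatibility genes, which present antigen on immune cells, stood high among them. HLA-DRA was at 2.42 FPKM in RT4, 0.0163 in RT112 and 0 in SW780 with DMSO and at 89.5, 0.616 and 6.66 FPKM with quisinostat. HLA-DRB1 was at 0.531, 0 and 0.259 FPKM with DMSO and at 15.7, 0.591 and 4.31 FPKM with quisinostat in the same order of lines. HLA-DPB1 was at 0.0818, 0 and 0 FPKM with DMSO and at 15.1, 0.277 and 4.96 FPKM with quisinostat. The levels were highest in RT4 and lowest in RT112 after treatment, and close copies among these genes can share reads. DNER, a neuronal Notch ligand, was at 0.0494, 0 and 0.0382 FPKM with DMSO and at 9.51, 0.983 and 3.53 FPKM with quisinostat. DKK3, a secreted protein of the Dickkopf family, was at 0.29, 0.0996 and 0 FPKM with DMSO and at 10.7, 3.89 and 0.0819 FPKM with quisinostat. BEX5 was at 0, 0.143 and 0.223 FPKM with DMSO and at 1.94, 3.55 and 11.4 FPKM with quisinostat.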
